A study of Papio anubis with 25 samples.

Results

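The subject is a set of 5 baboon genes that carry a locus number in place of a symbol, LOC103881672, LOC103884417, LOC101021528, LOC101011282 and LOC101004235. They are 5 of the 21287 genes in the table, and all 5 passed the filter of the model below, a tissue mean of 1 TPM or more, as did 14991 genes in all. They were chosen by identifier for a very high level, or a contrast between glands, in the salivary libraries. Their gland levels and every difference that involves a gland are therefore given as a description with no test, and only pancreas against liver is tested for them. The name "most abundant" held for 4 of the 5, and in parotid or submandibular gland only. In sublingual gland these 4 ranked 14, 20, 28 and 55 by mean among all genes, in the order given above. LOC103881672 had the highest mean of any gene in parotid gland, LOC103884417 had the highest in submandibular gland, and LOC101021528 and LOC101011282 ranked 3 and 5 there. LOC101004235 ranked 79 in submandibular gland and 4152 in parotid gland and is in the set for its contrast between glands. No product name is paired with these identifiers in the sources used here, and which protein each encodes was not tested.

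Bulk RNA sequencing was done on 5 olive baboons (Papio anubis), 4 females and 1 male, with 1 library for each of 5 tissues of every animal. The tissues were parotid, submandibular and sublingual salivary gland, pancreas and liver, with the left gland taken of each salivary pair and all samples flash frozen, with no treatment and no genetic change named in the labels, which give no ages. Baboons 1 to 4 were the females and baboon 5 was the male, so sex cannot be told apart from that animal. The study compared glands with pancreas and pancreas with liver, within animals. Values are TPM, transcript abundances scaled to a fixed library total, which relate a gene to the total of its own library and correct for transcript length, so levels of different genes can be compared. TPM keeps no depth, so the number of reads is unknown and the precision rests on the spread over 5 animals.

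Salivary acinar cells make and export large amounts of a few small proteins. Among them are proline-rich proteins, which bind tannins and calcium, histatins and related peptides, which act on fungi and on tooth mineral, cystatins, which inhibit cysteine proteases, and BPI-fold proteins such as BPIFA2, the parotid secretory protein. Parotid gland is mainly serous, sublingual gland mainly mucous, and submandibular gland mixed. In tissue RNA, fewer cells of a type and less RNA per cell cannot be told apart.

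The position of the loci among named genes was read from RefSeq genes on the Panubis1.0 assembly, a table that names neighbours and holds no sequence. LOC103884417 stood directly beside HTN1, the gene of histatin 1, and next after HTN1 came PRR27, a proline-rich protein gene; on its other side lay the long noncoding RNA LOC101015236 and then the milk casein gene CSN2. LOC101011282 stood directly beside OPRPN, the precursor of the peptide opiorphin, followed by MUC7, the small salivary mucin; on its other side lay LOC103884413 and the long noncoding RNA LOC103884415. These 2 loci belonged to the same gene cluster, with 10 genes between them, 8 of them protein-coding. LOC103881672 followed SMIM10L1 and the bitter taste receptor gene TAS2R42 and preceded the pseudogene LOC101024132 and the small nuclear RNA LOC116269038. It lay on the same chromosome as PRH2, a proline-rich protein gene of saliva, with 90 genes between them. LOC101021528 stood directly beside the cystatin gene CST9, with LOC116270674 on its other side. LOC101004235 lay between BPIFA2 and BPIFA3, genes of the BPI-fold family, each separated from it by 1 long noncoding RNA. All 5 are listed as protein-coding with 1 RefSeq transcript each. A neighbour is a position and not an identity.

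Some gland libraries held many transcripts of other tissues, and this bears on every gland value below. Summed over marker lists, adipocyte markers (7 of 7 genes used) reached 22555 TPM in the parotid library of baboon 2, 2867 TPM in submandibular 2 and 7084 TPM in submandibular 5, against 18.0 to 407 TPM in the other gland libraries. Lymphocyte markers (8 of 8) reached 1295 TPM in parotid 5, against 2.66 to 92.9 TPM in the other 14. Skeletal muscle markers (7 of 8) reached 82301 TPM in sublingual 2, and markers of stratified oral mucosa (7 of 8) reached 117920 and 53693 TPM in sublingual 1 and 4. These 7 libraries were left out in an alternative chosen after the data were seen, and the remaining glands are parotid 1, 3 and 4, submandibular 1, 3 and 4, and sublingual 3 and 5. AQP5, the water channel of salivary acinar cells, stood at 107, 2.25, 48.3, 53.9 and 3.64 TPM in parotid 1 to 5, at 88.3, 5.40, 70.8, 54.7 and 61.8 TPM in submandibular 1 to 5 and at 40.5, 2.61, 68.9, 3.78 and 226 TPM in sublingual 1 to 5, against 1.98 to 4.52 TPM in pancreas and liver. Parotid 2 and 5 and sublingual 2 and 4 were thus inside the range of pancreas and liver for this marker, and submandibular 2 was just above it. Other acinar markers did not all follow AQP5. In parotid 5 BHLHA15, a transcription factor of secretory cells, stood at 55.4 TPM, against at most 2.93 TPM in liver and 22.2 to 115 TPM in pancreas. On TPM, the sum of the 10 acinar markers in parotid 5, 3930 TPM, was the highest of the parotid libraries (1686 TPM in parotid 2). That sum was 881 to 3234 TPM in pancreas and 627 to 3335 TPM in liver, and parotid 1, 2 and 3 lay inside this range. The 5 loci lower TPM in parotid 1, 3 and 4. The total TPM over the TPM outside the loci was 2.49, 1.75 and 2.55 there, against 1.02 in parotid 5. The order of these sums and their nearness to pancreas and liver therefore hold for TPM only. Which cells of parotid 5 gave these values was not tested. In pancreas the summed pancreatic acinar markers were at 158178 to 195631 TPM, and in liver the hepatocyte markers were at 43962 to 76443 TPM, which matches those labels.

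LOC103881672 was the most abundant transcript of parotid gland. In parotid 1 to 5 it stood at 416757, 3271, 363990, 448743 and 6511 TPM, a mean of 247854 ± 223852 TPM (SD, n = 5). In submandibular 1 to 5 it stood at 140350, 12378, 186557, 192071 and 115097 TPM, a mean of 129291 ± 72824 TPM (SD, n = 5). Parotid 1, 3 and 4 were the highest of all libraries, while parotid 2 and 5, the libraries with adipocyte and lymphocyte markers, were below all 5 submandibular libraries; the part of those cells in this was not tested. In sublingual 1 to 5 it stood at 8538, 7238, 11182, 17500.3 and 16808 TPM, in pancreas at 7962, 9250.2, 10540.2, 10039 and 3278 TPM and in liver at 8149.7, 5635, 8775, 6944 and 10619 TPM. The means were 12253 ± 4701 TPM, 8214 ± 2926 TPM and 8025 ± 1883 TPM (SD, n = 5 each). Parotid and submandibular values overlapped, as did sublingual, pancreas and liver values, and 11 of the 15 gland libraries were above all 10 pancreas and liver libraries. Submandibular gland was above sublingual gland in 5 of 5 animals, by 3.02 ± 1.36 (SD, n = 5) on the log2(TPM + 1) scale, and parotid was above submandibular in 3 of 5 animals. Without the 7 libraries the parotid mean was 409830 TPM and the submandibular mean 172993 TPM, 3 libraries each.

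LOC103884417, the locus beside the histatin gene HTN1, was the most abundant transcript of submandibular gland. In submandibular 1 to 5 it stood at 283861, 8395, 162391, 317371 and 167128 TPM, a mean of 187829 ± 121733 TPM (SD, n = 5). In parotid 1 to 5 it stood at 123840, 3518, 48707, 146610 and 9114 TPM, a mean of 66358 ± 65730.3 TPM (SD, n = 5). It ranked first among all genes in submandibular 1, 4 and 5, and submandibular 2 was the one library of that gland inside the pancreas and liver range. The parotid library was below the submandibular library in 5 of 5 animals, with a difference, parotid minus submandibular, of -1.90 ± 1.31 (SD, n = 5) on the log2(TPM + 1) scale. In sublingual 1 to 5 it stood at 8068, 5357, 5149, 13641 and 7084 TPM, in pancreas at 7008, 8357, 8129, 5754 and 5246 TPM and in liver at 8029, 3693, 5580.4, 5307 and 11018 TPM. The means were 7859.8 ± 3453 TPM, 6899 ± 1387 TPM and 6725 ± 2857 TPM (SD, n = 5 each), and these groups overlapped. In all, 8 of 15 gland libraries were above the 10 pancreas and liver libraries. Without the 7 libraries the means were 254541 TPM in submandibular and 106386 TPM in parotid gland.

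LOC101011282, beside the opiorphin gene, had the same order of tissues at a lower level. In submandibular 1 to 5 it stood at 115883, 3596, 67923, 80059 and 53957 TPM, a mean of 64284 ± 40970.3 TPM (SD, n = 5). In parotid 1 to 5 it stood at 52159.5, 1285, 9999, 9800.3 and 3047 TPM, a mean of 15258 ± 20997 TPM (SD, n = 5). Baboon 1 was far above the other parotid libraries, and parotid was below submandibular gland in 5 of 5 animals, with a difference, parotid minus submandibular, of -2.52 ± 1.22 (SD, n = 5) on the log2 scale. In sublingual gland it stood at 2761, 1925, 1201, 3282 and 3269.8 TPM, in pancreas at 2664, 3346, 2134, 1573 and 1354 TPM and in liver at 2828, 1662, 1399, 1253 and 3509.8 TPM. The means were 2488 ± 907 TPM, 2214 ± 813 TPM and 2130.5 ± 989 TPM (SD, n = 5 each). These last groups overlapped, and 8 of 15 gland libraries were above them all, 3 of them in parotid, 5 in submandibular and none in sublingual gland. Without the 7 libraries the means were 87955 TPM in submandibular and 23986 TPM in parotid gland.

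LOC101021528, the locus beside the cystatin gene CST9, was a submandibular transcript. On TPM its parotid levels were near those of pancreas and liver. In submandibular 1 to 5 it stood at 135043, 1662, 155289, 78489 and 108186 TPM, a mean of 95734 ± 59987 TPM (SD, n = 5). In parotid 1 to 5 it stood at 5229, 1468, 4309, 2956 and 3207 TPM, a mean of 3434 ± 1426 TPM (SD, n = 5). Parotid was below submandibular gland in 5 of 5 animals, with a difference of -3.97 ± 2.13 (SD, n = 5) on the log2 scale, and in submandibular 2 it was at the level of parotid gland. In sublingual 1 to 5 it stood at 3529.9, 2459.99, 1601, 3829.6 and 18488 TPM, with baboon 5, the male, far above the other 4. In pancreas it stood at 2699.9, 3080.3, 2551, 3057 and 1546 TPM and in liver at 4997, 1161, 2068, 2472 and 3702 TPM, with means of 2587 ± 625 TPM and 2879.8 ± 1495 TPM (SD, n = 5 each). On TPM, 6 of 15 gland libraries were above all pancreas and liver libraries. They were parotid 1, submandibular 1, 3, 4 and 5, and sublingual 5. The high share of the loci lowers TPM in parotid 1, 3 and 4, so the nearness of these libraries holds for TPM only. Among the genes of its own library this locus ranked 8, 89, 24, 8 and 26 in parotid 1 to 5. Its best rank was 44 for any pancreas library and 34 for any liver library. Without the 7 libraries the submandibular mean was 122940 TPM and the parotid mean 4164 TPM.

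LOC101004235, the locus between BPIFA2 and BPIFA3, was the lowest of the 5 and differed most between libraries. In submandibular 1 to 5 it stood at 1750.1, 24.3, 124, 835 and 1085 TPM, a mean of 764 ± 714 TPM (SD, n = 5). In parotid 1 to 5 it stood at 8.43, 15.8, 9.60, 1.13 and 31.6 TPM, a mean of 13.3 ± 11.5 TPM (SD, n = 5). In sublingual 1 to 5 it stood at 28.5, 24.0, 1.48, 33.5 and 758 TPM, a mean of 169 ± 329 TPM (SD, n = 5). Baboon 3 had the second lowest submandibular value and the lowest sublingual value, although the other 4 loci were high in its submandibular library. Parotid was below submandibular gland in 5 of 5 animals, with a difference of -5.07 ± 3.20 (SD, n = 5) on the log2 scale. On TPM, parotid 1, 3 and 4, where LOC103881672 was highest, had the 3 lowest parotid values of this locus. The total TPM over the TPM outside the 5 loci was 2.49, 1.01, 1.75, 2.55 and 1.02 in parotid 1 to 5. The high share of the loci lowers TPM in parotid 1, 3 and 4, so this order holds for TPM only. In pancreas it stood at 15.8, 29.1, 13.02, 14.6 and 18.5 TPM and in liver at 29.9, 13.4, 5.33, 13.1 and 41.8 TPM. Baboon 3 was again the lowest in both. The rule did not use these 10 values, and the levels of 1 animal across tissues are a description with no test. Of 15 gland libraries 5 were above all pancreas and liver libraries, submandibular 1, 3, 4 and 5 and sublingual 5, and without the 7 libraries the submandibular mean was 903 TPM.

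**Figure D1:**
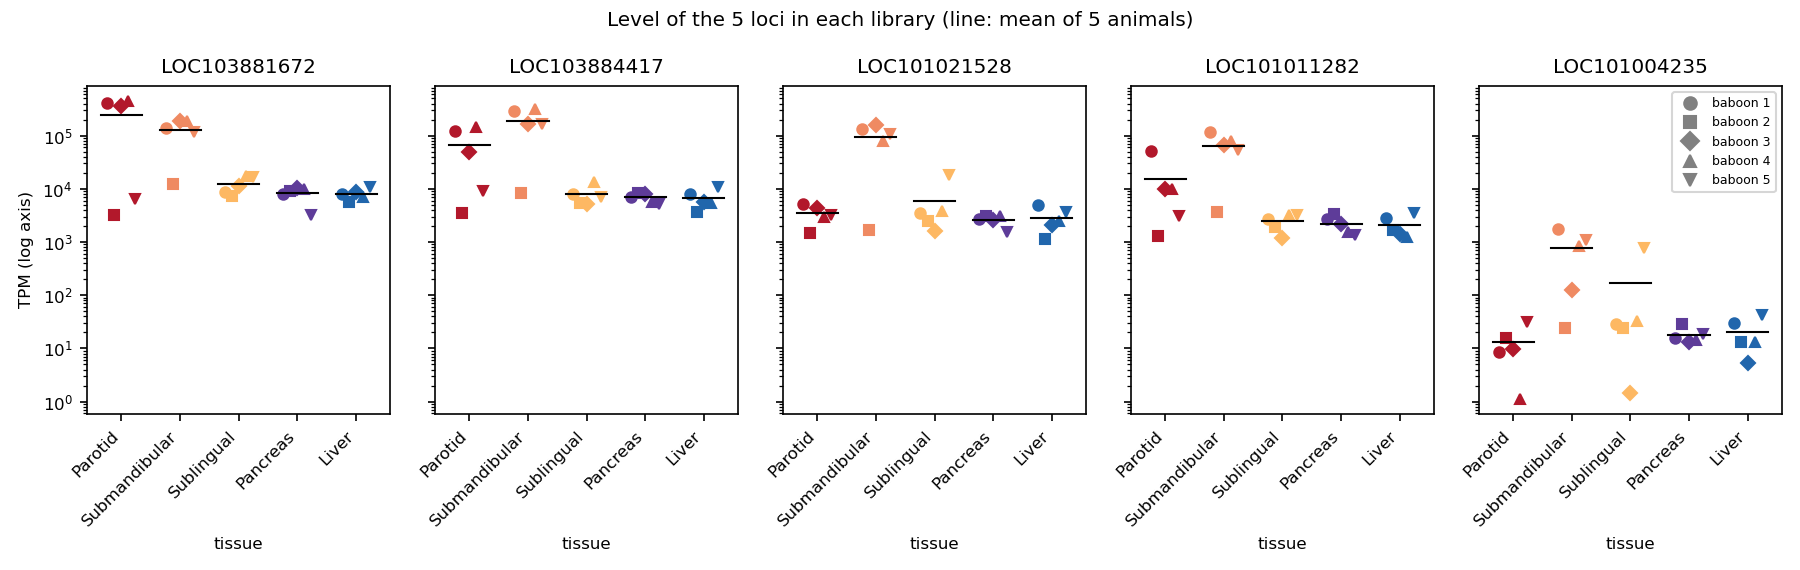
TPM of each locus (log axis) in every library, 1 panel per locus, with tissues on the horizontal axis, marker shapes for baboons 1 to 5 and a line at the mean of 5 animals. LOC103881672 is highest in parotid 1, 3 and 4, the other 4 loci have their highest mean in submandibular gland, and parotid 2, parotid 5 and submandibular 2 sit near the pancreas and liver points for LOC103884417 and LOC101011282.

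Together the 5 loci took a large part of the gland transcripts. Their summed share of the library was 59.8, 0.956, 42.7, 60.8 and 2.19% in parotid 1 to 5 and 67.7, 2.61, 57.2, 66.9 and 44.5% in submandibular 1 to 5. In sublingual 1 to 5 it was 2.29, 1.70, 1.91, 3.83 and 4.64%, in pancreas 2.03, 2.41, 2.34, 2.04 and 1.14% and in liver 2.40, 1.22, 1.78, 1.60 and 2.89%. In 7 libraries the loci held over 40% of all transcripts, and in the other 18 they held under 5%.

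Because TPM values add up to a fixed total, the loci lower every other gene of the same library. Taken relative to all genes but the 5 loci, other genes were 2.49 times as high in parotid 1 and 3.09 times as high in submandibular 1, and 1.01 to 1.05 times as high in the 18 libraries with a low share. The cytoskeletal actin gene ACTB stood at 97.8, 851, 205, 53.3 and 1947 TPM in parotid 1 to 5, and at 243, 859, 358, 136 and 1991 once the remaining transcripts were scaled to the same total. The order of these libraries was the same on both scales. The correction narrowed the distance between high and low ACTB libraries without closing it. Over all genes, limma called 572 genes (3.82% of those tested) between parotid gland and pancreas on TPM, 212 of them higher and 360 lower in parotid. Relative to all genes but the loci it called 5727 of 15318 tested (37.4%), 5346 of them higher and 381 lower. With TMM scaling it called 1236 of 14345 (8.62%), 412 higher and 824 lower. Lower calls were thus the majority on TPM and with TMM scaling, and higher calls the majority relative to all genes but the loci. Whether single genes changed direction was not tested. For submandibular gland limma called 611 genes (4.08%) on TPM, 190 higher and 421 lower. Relative to the rest it called 5626 (36.7%), 5273 of them higher and 353 lower. With TMM scaling it called 1307 (9.11%), 461 higher and 846 lower. A call needed an adjusted p under 0.05 together with a change of 1 or more on the log2 scale in either direction, and both comparisons share the pancreas libraries.

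**Figure D2:**
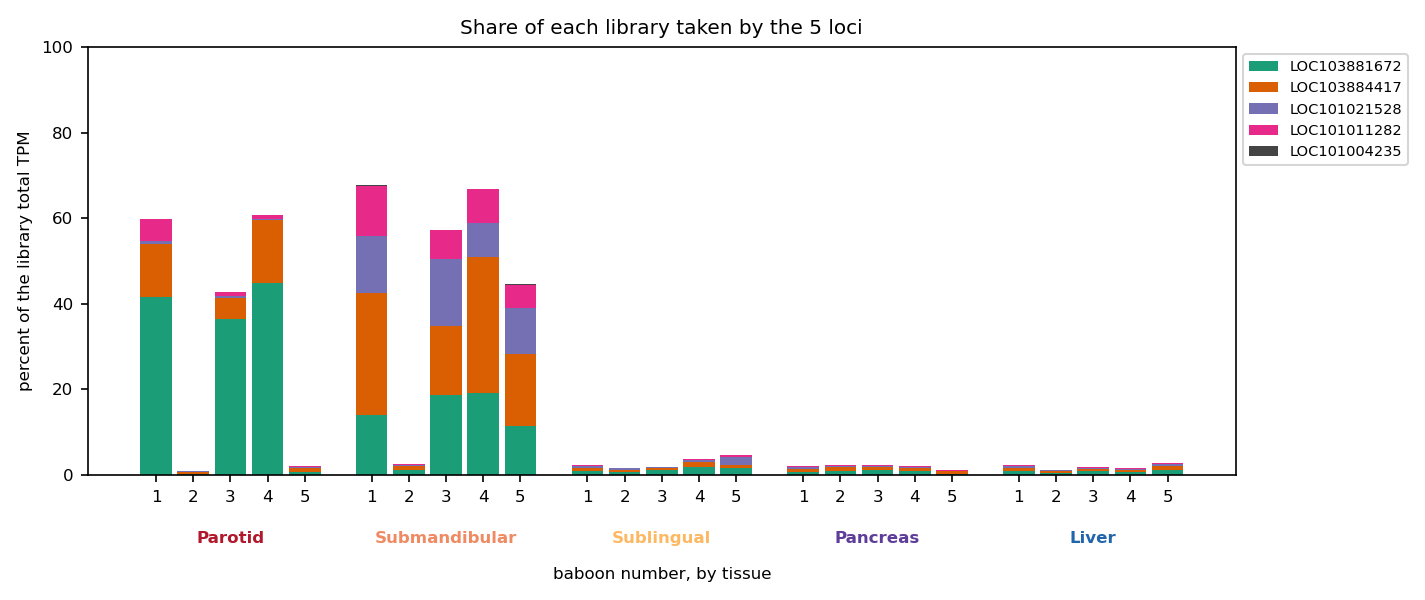
Percent of the library total TPM (vertical axis) taken by the 5 loci in each of the 25 libraries, stacked by locus and ordered by tissue and baboon. The bars reach 42.7 to 60.8% in parotid 1, 3 and 4 and 44.5 to 67.7% in submandibular 1, 3, 4 and 5, and stay at or below 4.64% elsewhere.

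The make-up of this sum differed between parotid 1, 3 and 4 and the submandibular libraries. In parotid 1 to 5 LOC103881672 was 69.7, 34.2, 85.2, 73.8 and 29.7% of the sum, and in submandibular 1 to 5 it was 20.7, 47.5, 32.6, 28.7 and 25.8%. LOC101021528 was 0.874, 15.4, 1.01, 0.486 and 14.6% of the sum in parotid 1 to 5 and 20.0, 6.38, 27.1, 11.7 and 24.3% in submandibular 1 to 5. Parotid 2 and 5, the 2 libraries with a low summed share, had a make-up outside the range of parotid 1, 3 and 4 for both loci. In pancreas the mean make-up was 40.1 ± 7.77% LOC103881672, 35.6 ± 6.39% LOC103884417, 13.1 ± 1.46% LOC101021528 and 11.1 ± 2.64% LOC101011282 (SD, n = 5). In liver it was 41.9 ± 6.44%, 33.3 ± 3.00%, 14.0 ± 4.34% and 10.7 ± 2.66% in the same order (SD, n = 5). For LOC101021528, parotid 2 and 5 lay inside the liver range of 9.54 to 20.8%, and parotid 2 lay above the pancreas range of 10.9 to 14.96%. For LOC103881672, both lay inside the pancreas range of 28.6 to 49.1%, and parotid 5 lay below the liver range of 33.9 to 49.2%.

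**Figure D3:**
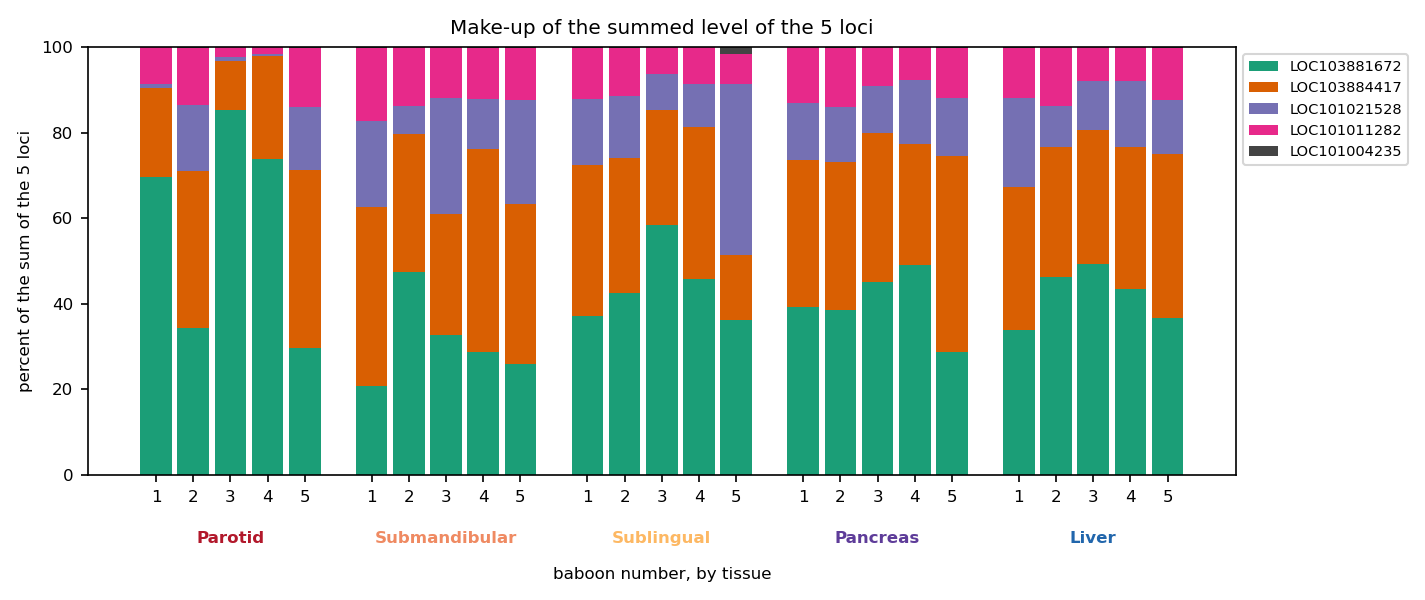
Percent of the summed TPM of the 5 loci (vertical axis) contributed by each locus in the 25 libraries, ordered by tissue and baboon. LOC103881672 makes up 69.7 to 85.2% in parotid 1, 3 and 4 and 20.7 to 47.5% in submandibular gland, and LOC101021528 makes up 39.8% in sublingual 5.

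Pancreas and liver did not differ detectably in any of the 5 loci, the comparison that the choice of loci did not use. The pancreas library was higher than the liver library in 3 of 5 animals for every locus. On the log2(TPM + 1) scale, pancreas minus liver was -0.04 (SE 0.89, 95% interval -1.88 to 1.79) for LOC103881672 and 0.11 (SE 0.72, -1.37 to 1.60) for LOC103884417. It was -0.03 (SE 0.75, -1.58 to 1.52) for LOC101021528, 0.10 (SE 0.71, -1.37 to 1.56) for LOC101011282 and 0.07 (SE 0.93, -1.85 to 1.98) for LOC101004235. The limma adjusted p-values ran from 0.957 to 0.993, and 0 of 5 loci were called, against 17.5% of all genes tested (2623 of 14991) in this comparison. At an unadjusted limma p under 0.05 the count for the loci was also 0, against 4337 of the 14991 genes tested. These intervals leave room for differences of over 2-fold in either direction, and the fit shares its spread with the gland libraries. A fit of pancreas and liver alone gave the same differences with SEs of 0.29 to 0.36 and intervals within -0.86 to 0.90. The median of all genes was at -0.44 in this comparison, with 428 genes (2.86%) higher and 2195 (14.6%) lower in pancreas. With TMM scaling between libraries that median was at -0.02, with 1097 higher and 1660 lower, and the loci were at 0.65 to 0.81, with limma adjusted p of at least 0.677.

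The level of the loci outside the glands was about the same part of their gland level for all 5. In liver their mean was 2.71 to 3.58% of the mean in the gland where each was highest (median 3.24%), and in pancreas it was 2.38 to 3.67% (median 3.31%). These gland means include the libraries with markers of other tissues. Without those libraries the gland means of all 5 loci were higher, so the shares would be lower. For 13 genes of a list of salivary secretory genes with a gland mean of at least 1000 TPM, the liver share was 1.14 to 8.25% (median 3.26%) and the pancreas share 0.874 to 177% (median 1.83%), the highest being that of KLK1. BPIFA2 was at 3.26% and PRH2 at 5.21% in liver. Carbonic anhydrase CA6, an enzyme secreted into saliva, had the highest liver share, 8.25%. Pancreatic acinar markers, 8 digestive enzyme and granule genes, stood in liver at 0.551 to 1.15% of their pancreas mean (median 0.854%). Hepatocyte markers, 7 plasma protein genes, stood in pancreas at 0.678 to 3.24% of their liver mean (median 1.04%). Among the loci the pancreas and liver values ran over a range of 2.80-fold for LOC101011282 to 7.84-fold for LOC101004235 across 10 libraries. Whether low values of the loci in pancreas and liver are RNA made in those tissues was not tested.

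**Figure D4:**
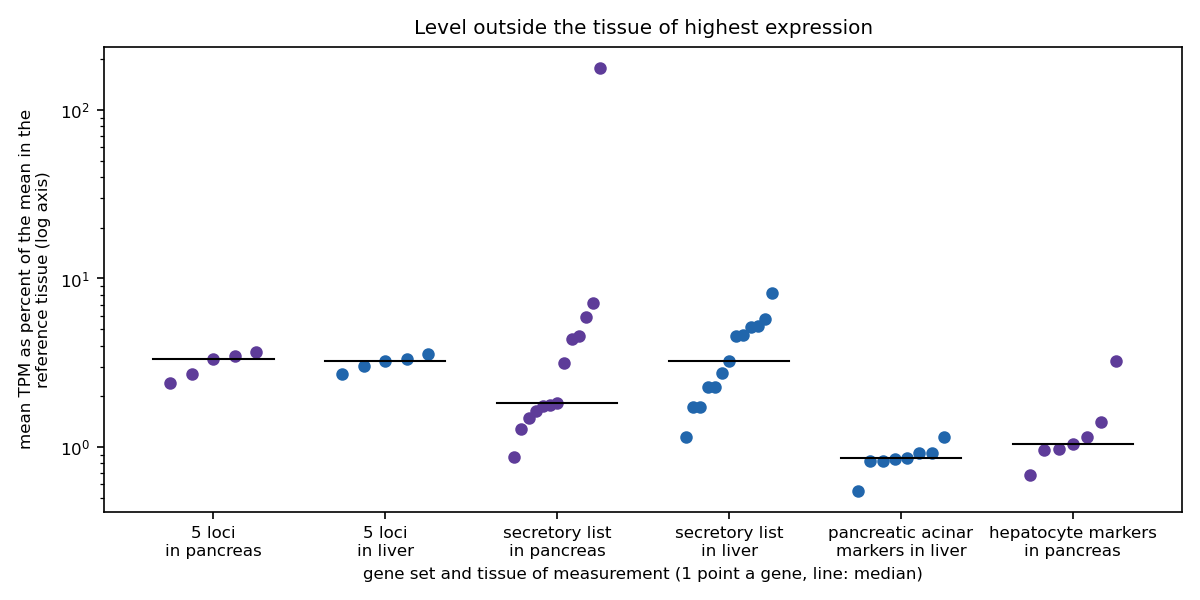
Mean TPM of each gene in pancreas or liver as a percent of its mean in the tissue of reference (log axis), 1 point per gene and a line at the median, where the reference is the gland of highest mean for the loci and the secretory list, pancreas for pancreatic acinar markers and liver for hepatocyte markers. The medians are 3.31 and 3.24% for the loci in pancreas and liver, 0.854% for pancreatic acinar markers in liver and 1.04% for hepatocyte markers in pancreas.

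The genes most like LOC103881672, LOC103884417 and LOC101011282 included PRH2, BPIFA2, PRR27, CA6 and OPRPN, genes of salivary secretion. Likeness was the Pearson correlation of log2(TPM + 1) over 25 libraries among 7132 genes that reached a mean of 10 TPM in some tissue, and the libraries share animals and library totals. Since 7 libraries stand far above the rest, the correlation within the 10 pancreas and liver libraries is given beside it, as the second value. For LOC103881672 the closest gene was PRH2, the salivary proline-rich protein gene, at 0.986 over 25 libraries and 0.932 over the 10. PRR27 (0.971 and 0.730), LOC103884417 (0.927 and 0.619), BPIFA2 (0.912 and 0.699) and the dystrobrevin gene DTNB (0.895 and -0.53) followed. PRH2 stood at 136723, 1636, 105547, 193793 and 5122 TPM in parotid 1 to 5, a ratio to LOC103881672 of 0.290 to 0.787, and over all 25 libraries the ratio ran from 0.268 to 0.811. Where copies are nearly identical the quantification may divide reads between them, and whether PRH2 and LOC103881672 share sequence was not tested.

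For LOC103884417 and LOC101011282 the closest gene was BPIFA2. It correlated with LOC103884417 at 0.992 over 25 libraries and 0.911 over the 10 pancreas and liver libraries, and with LOC101011282 at 0.979 and 0.874. BPIFA2 stood at 19382, 507, 5051, 15809.6 and 1108 TPM in parotid 1 to 5 and 46591, 1044, 35896, 36518 and 28937 TPM in submandibular 1 to 5. Its ratio to LOC103884417 stayed between 0.104 and 0.221 in all 25 libraries, while LOC103884417 itself ran over a 90.2-fold range. After BPIFA2 came PRR27 (0.968 and 0.753), LOC101011282 (0.965 and 0.816), CA6 (0.950 and 0.576) and PRH2 (0.947 and 0.730) for LOC103884417. For LOC101011282 they were LOC103884417 (0.965 and 0.816), CA6 (0.932 and 0.705), PRR27 (0.916 and 0.595) and its neighbour OPRPN (0.895 and 0.329).

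LOC101021528 and LOC101004235 were closest to other genes. For LOC101021528 they were LOC101017903 (0.879 and -0.0042), which stands beside the secretoglobin gene SCGB2A2, LOC101011282 (0.867 and 0.641), CA6 (0.862 and 0.776), BPIFA2 (0.848 and 0.927) and LOC101004235 (0.840 and 0.549). For LOC101004235 they were MUC19, a gel-forming mucin gene (0.876 and 0.687), LOC101017903 (0.857 and 0.098), LOC101021528 (0.840 and 0.549), ST6GALNAC1, which adds sialic acid to mucin-type sugar chains (0.813 and 0.675), and MUC7 (0.795 and 0.629). LOC101017903 stood at 20.5, 0.507, 7.70, 18.1 and 32.0 TPM in submandibular 1 to 5. It was at 0 to 0.718 TPM in pancreas and 0 to 0.724 TPM in liver, near the floor, so its second values say little. Between the loci the highest correlation was that of LOC103884417 with LOC101011282 (0.965), and the lowest that of LOC103881672 with LOC101004235 (0.254). Of the 25 gene places, 21 were kept over the 15 gland libraries alone, 21 with a pseudocount of 0.1 in place of 1, and 17 with Spearman's rank correlation. The closest gene was the same for 4, 4 and 1 of the 5 loci in these settings. By Spearman's rho PRR27 (0.912) was closer to LOC103881672 than PRH2 (0.864), LOC103884417 and LOC101011282 were closer to each other (0.950) than to BPIFA2 (0.948 and 0.943), and BPIFA2 (0.917) was closer to LOC101021528 than LOC101017903 (0.587).

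**Figure D5:**
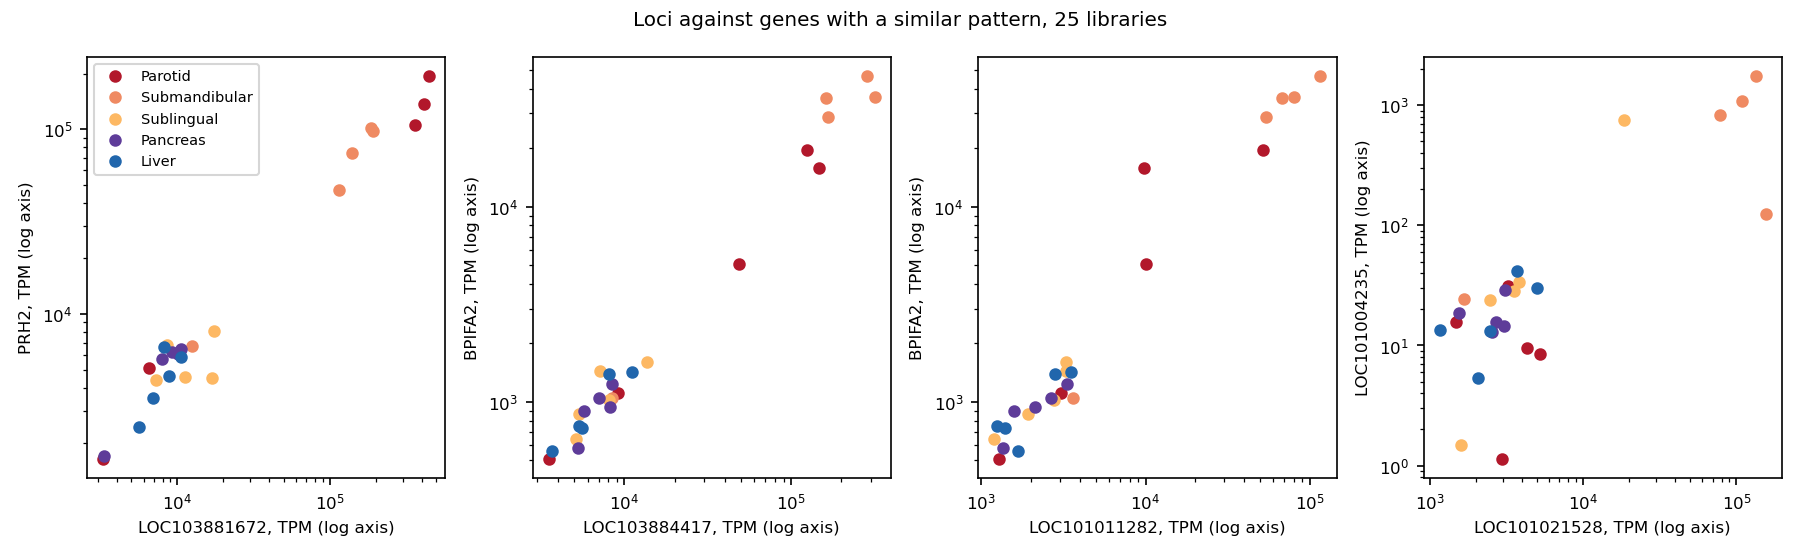
TPM of 4 loci against a gene with a similar pattern in 25 libraries (log axes), coloured by tissue. PRH2 against LOC103881672 and BPIFA2 against LOC103884417 and LOC101011282 lie along a line, and LOC101004235 against LOC101021528 spreads more widely, with submandibular 3 at 155289 and 124 TPM.

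LOC101004235 stood near BPIFA2 in the genome but at a varying share of its level. It was at 3.76, 2.33, 0.346, 2.29 and 3.75% of BPIFA2 in submandibular 1 to 5, at 0.0435, 3.12, 0.190, 0.00714 and 2.85% in parotid 1 to 5, and at 52.6% in sublingual 5. The share in parotid 1, 3 and 4 was below that of every submandibular library. In pancreas it was 1.51, 2.36, 1.39, 1.63 and 3.19% and in liver 2.16, 2.39, 0.725, 1.74 and 2.96% for baboons 1 to 5. Baboon 3 had the lowest share in submandibular, sublingual, pancreas and liver libraries, a description of 1 animal with no test.

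In parotid and submandibular gland, the neighbours with values of the 4 abundant loci had lower means than the loci themselves. HTN1 stood at 2690.1, 17.9, 9686, 1738 and 36.4 TPM in parotid 1 to 5 and 124, 70.4, 227, 947 and 36.2 TPM in submandibular 1 to 5, an order of glands opposite by mean to that of LOC103884417 beside it. OPRPN stood at 252, 2.73, 9.88, 17.2 and 2.66 TPM in parotid 1 to 5 and 229.9, 5.37, 17.1, 141 and 52.8 TPM in submandibular 1 to 5. Baboon 1 had the highest parotid value of both OPRPN and LOC101011282. MUC7 had its highest mean in sublingual gland (9688 TPM, against 3502 TPM in submandibular and 174 TPM in parotid gland). CST9 was at most 3.97 TPM and BPIFA3 at most 5.00 TPM in any library, and TAS2R42 at most 1.83 TPM. CSN2 had tissue means of 0.16 to 5.88 TPM, SMIM10L1 of 37.0 to 107 TPM and LOC103884413 of 10.3 to 45.2 TPM. These values are given by position and say nothing of shared control.

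Other salivary secretory genes gave the setting in which the loci stood. Of a list of 54 such genes, 36 symbols were used and 35 passed the filter. The symbols without a value included AMY1A, CST1 to CST5, HTN3, PRB1 to PRB4, PRH1 and STATH, so the counts cover only the rest. This list was written with earlier results of these data known, and it holds PRH2, BPIFA2 and other genes named above. In submandibular gland against pancreas 10 of 35 were higher and 1 lower by limma, against 1.27% and 2.81% of all genes, with a list median of 1.73 log2 against 0.17 over all genes. SCGB2A2, a secretoglobin, rose by 4.33 (SE 0.96, limma adjusted p 0.00687), BPIFA2 by 4.30 (SE 0.76, limma adjusted p 0.000692) and OPRPN by 4.22 (SE 0.93, limma adjusted p 0.00677). They were higher in 5, 4 and 5 of 5 animals. The zymogen granule protein gene ZG16 was lower, by -7.40 (SE 0.55, limma adjusted p 9.42e-10), and it is a gene that pancreas expresses strongly, with a mean of 15678 TPM there.

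In sublingual gland against pancreas 16 of 35 were higher and 2 lower by limma, against 6.97% and 2.49% of all genes, with a list median of 1.85 log2 against 0.63. The largest rises were those of CRISP3, a cysteine-rich secretory protein (5.23, SE 1.05, limma adjusted p 0.00265), BPIFB1, a BPI-fold protein (4.24, SE 1.08, limma adjusted p 0.0174), and FDCSP, a small secreted protein (3.79, SE 1.12, limma adjusted p 0.0371). ZG16 (-6.79) and the kallikrein gene KLK1 (-3.68) were lower, with limma adjusted p of 5.02e-09 and 0.00978. In parotid gland against pancreas 1 of 35 was higher, HTN1 (3.49, SE 0.97, limma adjusted p 0.0424), and 2 were lower, ZG16 (-7.53) and KLK1 (-3.26), with limma adjusted p of 7.21e-10 and 0.0302. The background there was 1.41% higher and 2.40% lower, and the list median was 0.32 against 0.45. All 3 comparisons share the pancreas libraries. The parotid counts changed with the libraries used: without baboon 2 it was 10 higher, without baboon 5 it was 3, without baboon 1, 3 or 4 it was 0, and without the 7 libraries it was 12. For submandibular gland 4, 15, 6, 3 and 7 genes were called higher without baboons 1 to 5 in turn, and 19 without the 7 libraries. For sublingual gland the same counts were 2, 21, 1, 8 and 2, and 23 without the 7 libraries. The counts over all genes changed as well. Without the 7 libraries 463 of 14081 genes were called higher in parotid, 509 in submandibular and 3864 in sublingual gland. Without baboon 2 these counts were 227, 208 and 2625 of 14718 genes. With TMM scaling the list had 5 genes called higher in sublingual and 0 in parotid gland, and without the animal as block it had 0 in parotid gland.

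The genes with the highest gland means set the scale for the loci. In parotid gland LOC103881672 was followed by PRH2 (88564 TPM), LOC103884417, LOC101023064 (27131 TPM) and the actin-binding peptide gene TMSB4X (24566 TPM). In submandibular gland PRH2, at 65516 TPM, stood between LOC101021528 and LOC101011282. In sublingual gland no locus was among the highest 5, which were ZG16B, a secreted lectin gene (50400.1 TPM), the mitochondrial genes COX1 (38238 TPM), ATP6 (27926 TPM) and COX2 (27104 TPM), and LOC116274910 (21291 TPM). LOC101023064 was above LOC101011282 in parotid gland, so the 5 loci are not simply the highest 5 genes with a locus number. Among the 4555 such genes, LOC103881672 ranked 4 in sublingual gland, 12 in pancreas and 5 in liver. LOC103884417 ranked 5, 14 and 8 in the same tissues.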

How the data were processed

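TPM values per gene for 25 libraries were used as deposited; the name of the deposited table calls them kallisto abundances. The submitters' processing notes list kallisto with other tools and no versions, and the index, build and annotation are not given in the sources used here. RNA came from tissue sections treated with DNase, per the labels' protocols. Libraries were grouped by the tissue and animal in the labels, and each summed to 1000000 TPM within rounding. All 21287 identifiers matched the RefSeq gene table (Panubis1.0), used for names and gene order only. The members and gene lists were chosen with earlier results of these data known. The named genes were the 5 loci, the 5 genes most correlated with each, the nearest 2 genes on either side, the highest 5 genes of each gland and up to 3 list genes called in each direction per gland; ACTB, AQP5 and BHLHA15 were added after their values were seen.

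limma 3.58.1 (R 4.3.3) was fitted to log2(TPM + 1) of 14991 genes with tissue and animal as terms, with Benjamini-Hochberg adjustment over all of them. A fold change on this scale understates the change of low genes. The script was tested on simulated data. The animal numbers pair the libraries, since the same number is the same animal in the labels. Deviations of pancreas and liver from the tissue means correlated at 0.362 within animals (lowest 0.140) and -0.085 between animals. Deviations from a tissue mean cancel over its animals, so the between-animal value largely follows from the within-animal value and is no separate contrast. For parotid, submandibular and sublingual gland with pancreas the within-animal values were 0.100, 0.087 and -0.046. TMM factors (trimmed mean of log ratios) were computed on TPM. Alternatives were another scaling, filter, pseudocount, set of tissues, block and set of animals.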

Additional observations from a re-analysis of the deposited data

Results flagged for a closer look

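In 3 of the 25 groups of 5 libraries formed by a locus and a tissue, 1 library stood apart from the other 4 by a gap of more than 0.71 of the group's range, which is Dixon's limit for 5 values. All 3 are gland groups, whose levels chose the loci, so this is a description with no test. LOC101021528 stood at 18488 TPM in sublingual gland of baboon 5, with the next library at 3829.57 TPM, and the gap was 0.868 of the range. LOC101004235 stood at 758 TPM in the same library, with the next at 33.5 TPM and a gap of 0.958. LOC101011282 stood at 52159.5 TPM in parotid gland of baboon 1, with the next at 9999 TPM and a gap of 0.829. Salivary acinar markers summed to 324192 TPM in sublingual 5, the highest of all libraries, and baboon 5 was the male. Nearly all of this sum came from the markers ZG16B (217252 TPM), PIP (61330 TPM) and MUC7 (44550 TPM). In the same library AQP5 stood at 226 TPM. BHLHA15 stood at 38.5 TPM there, against up to 82.3 TPM in parotid and 55.8 TPM in submandibular gland.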

How the results depend on the processing

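All 70 alternative values of the loci in pancreas against liver moved by less than 1 SD of the within-animal difference, by at most 0.72. For most of them this was fixed in advance. Another block, filter or set of tissues left each estimate the same, and leaving out 1 animal cannot move a mean difference by 1 SD. The largest moves came from TMM and median-of-ratios scaling. Of the 70 values, 58 kept their sign, 12 changed it, and no alternative called a locus. TMM scaling turned LOC103881672 to 0.65 and LOC101021528 to 0.67, and median-of-ratios scaling turned them to 0.67 and 0.69; the cause was not tested. Leaving out 1 animal gave -0.23 to 0.37 for LOC103881672, -0.15 to 0.41 for LOC103884417, -0.38 to 0.28 for LOC101021528, -0.13 to 0.46 for LOC101011282 and -0.20 to 0.37 for LOC101004235, with signs changing in each. The count of all genes called in pancreas against liver was 1722 to 2678 without 1 animal (1722 without baboon 3), 4313 with only these tissues fitted and 4258 without the 7 gland libraries, an alternative chosen after seeing the data. Without the animal as replicate block that count was 2372, and the secretory list in parotid gland had 0 genes called higher and 1 lower; the block changed no other count by over 1.5 times.

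The secretory list in parotid gland had 0 called higher with either scaling, and 0 higher and 1 lower with no filter. It had 3 higher with a pseudocount of 0.1. With only the tissues compared it had 7 of 31 higher, against 319 of 13575 genes in all. Without the 7 libraries it had 12 of 33, against 463 of 14081. Relative to all genes but the loci the list had 11 of 35, against 5346 of 15318 genes, so these 11 were no excess of the list. In submandibular gland the list had 18 of 35 higher relative to all genes but the loci, against 5273 of 15318 genes. Without the 7 libraries it had 19 of 33 higher there, against 509 of 14081 genes, and 2 lower. In sublingual gland it had 2 higher with only the tissues compared, 5 with either scaling and 8 with no filter, and 1 lower without the 7 libraries. Leaving out 1 animal gave 0 to 10 higher and 1 to 2 lower in parotid, 3 to 15 and 1 to 1 in submandibular, and 1 to 21 and 1 to 3 in sublingual gland. Of 190 alternative means of a locus in a tissue, 171 moved by less than 1 SD and 19 by more. Leaving out 1 animal cannot move a mean by 1 SD, so those values are no check of it. The moves over 1 SD came from TMM and median-of-ratios scaling. LOC103881672 in parotid gland went from a mean of 247854 TPM to 488780 with TMM scaling. LOC103884417 in submandibular gland went from 187829 TPM to 337140 with median-of-ratios scaling. TPM keeps no depth, so counting error could not be set beside the spread over animals.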
